A study of Mus with 4 samples.

Results

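A circular RNA (circRNA) is a closed ring made when a splice donor is joined to an acceptor upstream of it. The deposited tables give for each such ring the reads across the back-spliced junction, and the reads that pass the same splice positions without crossing it (non-junction reads). The circRNAs described here were selected on these 2 counts, as those at which non-junction reads dominate: at least 20 junction reads in each of the 4 libraries, and a pooled junction ratio of at most 0.35. With reads summed over the libraries, the ratio sets 2 times the junction count over that same number plus the non-junction count. Of 44073 circRNAs listed, 2193 had at least 20 junction reads in each library, and 409 of these met the ratio limit. The other 1784 serve as the comparison.

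Ocular tissue of the strain C57BL/6J was either wild type or carried a VLDLR deletion, and every animal had breathed 75% oxygen from postnatal day 7 to day 12. Tissue was taken at day 12 (P12), or at day 13 (P13) after return to air, so age and the return to air cannot be told apart. There was 1 library for each of the 4 groups, and the labels do not give the number of animals or the kind of VLDLR allele. Libraries were made from RNA freed of ribosomal and linear RNA, per the labels' protocols, and the wild-type libraries held 662811 (P12) and 759063 (P13) junction reads, the deletion libraries 299723 (P12) and 341873 (P13). Both wild-type libraries came from 1 sequencing run and both deletion libraries from another, so genotype and run cannot be told apart. Vldlr itself hosted no counted circRNA, which leaves the genotype label without a check. Values below are given in this order of the 4 libraries.

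Back-splicing competes with linear splicing for the same sites, so one gene can give linear RNA and several rings from shared donors and acceptors. A ring that contains a splice site gives reads that pass through that site in linear order. Such reads are counted as non-junction reads, as are reads of linear RNA. The junction ratio therefore separates 1 ring from everything else at its sites, and not circular from linear RNA. In retina, photoreceptor genes with many exons and neuronal synapse genes are known hosts of such rings.

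The 409 circRNAs were low in junction reads and high in non-junction reads, which is what the rule chose and is given as a description. Their junction reads summed to a median of 208 (lowest 86, highest 2490), against 326 in the other 1784. Their non-junction reads summed to a median of 1728 (lowest 428, highest 26491), against 307. The pooled ratio had a median of 0.233 and reached down to 0.0196. It was at most 0.1 in 68, between 0.1 and 0.2 in 105, between 0.2 and 0.3 in 153 and above 0.3 in 83. The 409 held 5.44%, 5.53%, 6.87% and 6.52% of all junction reads of the libraries. Of the non-junction reads at the 2193 circRNAs they held 61.0%, 61.9%, 60.0% and 61.0%.

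**Figure D1:**
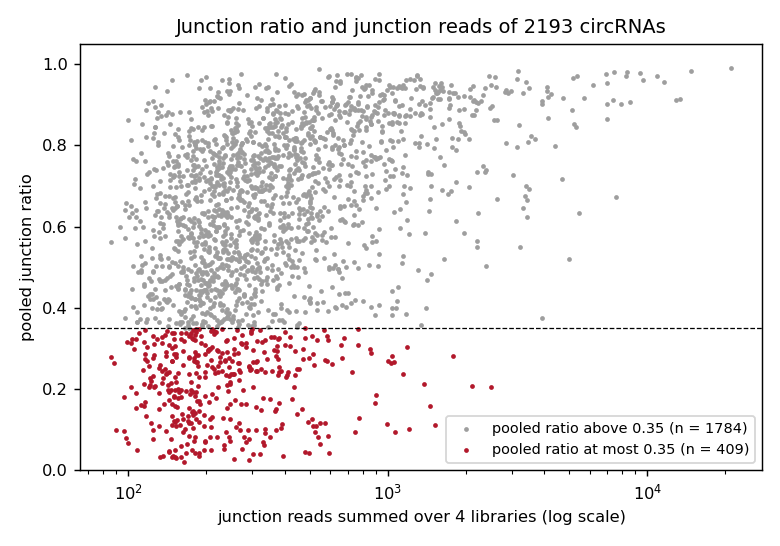
Each point is 1 of the 2193 circRNAs, with its junction reads summed over 4 libraries on a log axis and its pooled junction ratio on the vertical axis; the dashed line is the limit of 0.35. The 409 circRNAs at or below the line reach 2490 junction reads, and the most abundant circRNAs lie near the top.

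The limit cut through a continuous range. Just inside it lay circRNAs of Becn1 (autophagy, ratio 0.3486), Cadm1 (cell adhesion, 0.3486) and Ano2 (a calcium-activated chloride channel, 0.3495). Just outside lay circRNAs of Mef2d (0.3506) and Bbs9 (0.3515). The ratio was at most 0.35 in all 4 libraries separately for 292 of the 409. By library it was so for 391, 380, 349 and 350. The median ratio by library was 0.201, 0.211, 0.230 and 0.231, while that of the other 1784 was 0.695, 0.702, 0.695 and 0.696.

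**Figure D2:**
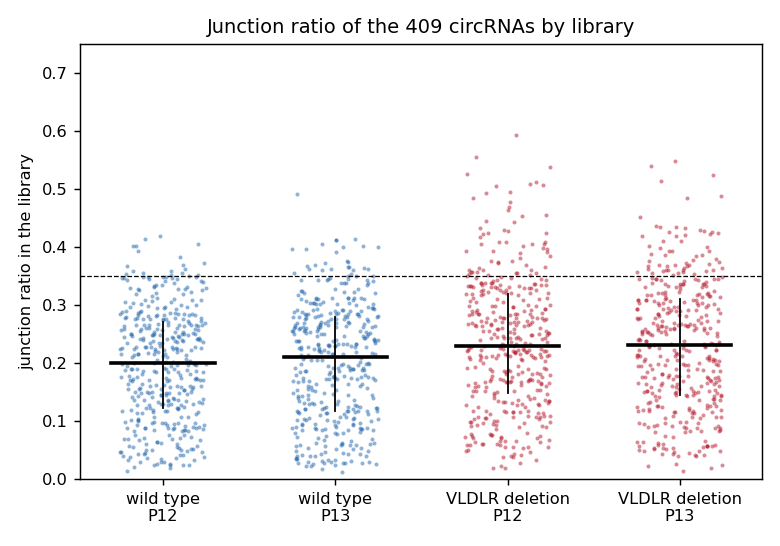
Each point is the junction ratio of 1 of the 409 circRNAs in 1 library; thick bars are medians and thin bars run from the lower to the upper quartile. The medians were 0.201 and 0.211 in the wild-type libraries and 0.230 and 0.231 in the deletion libraries, where more points lie above the dashed line at 0.35.

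Of the 409, 364 (89.0%) were of exon class, 12 (2.93%) of intron class and 33 (8.07%) of intergenic class in the deposited tables. In the others these shares were 93.0%, 3.64% and 3.31%. The genomic span from start to end had a median of 14582 bases (lowest 234, highest 189548), against 8719 in the others. One host gene was given for 375, and these came from 213 genes. 150 genes hosted 1 of them and 34 hosted at least 3. Of the 213 hosts, 159 also hosted a circRNA above the ratio limit. The 818 starts and ends fell on 684 distinct positions, of which 97 were used by at least 2 of the 409 and 1 by as many as 6. CircRNAs that share a position also share its non-junction reads, so the 409 are not independent of one another: 179 shared a position with another of them.

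Most of the 409 lay inside or beside a ring with more reads. For each, the junction reads of all other circRNAs of the same strand that span its start or its end were summed. This sum was greater than the circRNA's own junction reads in 348 (85.1%), against 384 (21.5%) of the others. The median of the sum was 1056 reads against 104.5. Counting only those spanning circRNAs that reached 20 reads in every library, the numbers were 304 (74.3%) and 200 (11.2%). A start or end was shared with a circRNA of more junction reads in 280 (68.5%), against 336 (18.8%). That partner had a median of 3.34 times the reads, and its own pooled ratio, known for 275 partners, was above 0.35 in 210 (median 0.607). These shares are a description with no test, since neighbouring circRNAs share positions and reads. The rule used the own junction reads and the non-junction reads, among which reads of spanning rings are counted, so the contrast with the others is partly set by the selection.

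Spanning rings were counted once at the start and once at the end and set against the non-junction reads. This gave a median of 0.790 spanning junction reads per non-junction read in the 409, and 0.406 in the others. The value was at least 0.5 in 295 (72.1%), against 768 (43.0%) of the others. It was under 0.1 in 43 (10.5%), against 390 (21.9%), and 11 (2.69%) had no spanning circRNA at all, against 151 (8.46%). A spanning ring is read at a site in proportion to fragment length and coverage, so the value is not a share and can pass 1. The reads do not say which non-junction reads came from rings and which from linear RNA. Across the 409, summed spanning reads and non-junction reads ranked together with a Spearman correlation of 0.729 (0.700 in the others), and own junction reads and non-junction reads with 0.589 (0.375). Points share libraries and positions, and the values are given without a test.

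**Figure D3:**
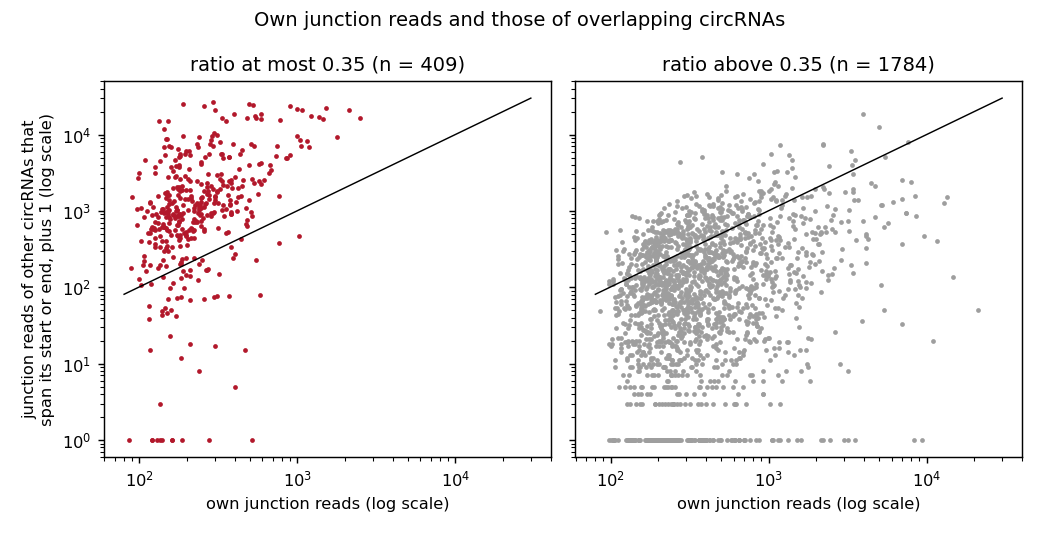
Both axes are read sums over 4 libraries on a log scale: own junction reads, and 1 plus the junction reads of other circRNAs that span the start or end; the line marks equal values. On the left (409 circRNAs at or below 0.35) 348 have more spanning than own reads, on the right (1784 above 0.35) 384.

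The 10 circRNAs of lowest ratio showed both arrangements. The lowest of all was in Sag, the arrestin of rod photoreceptors, at chr1:87817516-87824510. Coordinates are those of the deposited tables, whose build is not given in these sources. It had 32, 50, 38 and 44 junction reads beside 4418, 5498, 3113 and 3375 non-junction reads, a pooled ratio of 0.0196. Its non-junction reads were high in every library, while spanning circRNAs held only 245 reads in all. A circRNA of Pmel, which forms the fibrils of pigment granules, at chr10:128717751-128718142 had 35, 49, 30 and 46 junction reads beside 3253, 2938, 1523 and 1592 non-junction reads. Its ratio was 0.0332, and no other circRNA shared or spanned its ends.

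Others of the 10 lay within or overlapped abundant rings. A pair in Gigyf2, a translational repressor, at chr1:87364104-87365279 (34, 37, 32 and 30 junction reads, ratio 0.0327) and chr1:87364104-87374111 (41, 20, 44 and 46, ratio 0.0331) shared a start with the ring chr1:87364104-87380008. That ring had 14700 junction reads and a ratio of 0.983. In Ano2 the circRNA chr6:125793557-125815599 (52, 46, 23 and 26 reads, ratio 0.0316) shared its end with a ring of 6987 reads and ratio 0.864. One of Rmst, a long non-coding RNA of neurons, at chr10:92133223-92136690 (70, 69, 29 and 20 reads, ratio 0.0347) shared its end with chr10:92075170-92136690. That ring was the most abundant of these neighbours, with 21107 junction reads (6917, 8525, 2781 and 2884) and a ratio of 0.991. The circRNA of Atxn1, the polyglutamine protein ataxin, at chr13:45735115-45852456 had 24, 34, 32 and 46 reads and a ratio of 0.0336. A ring of 3239 reads and ratio 0.551 spanned its end but not its start. The remaining 3 of the 10 came from the Rp1 gene, described below.

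The 10 with most junction reads also lay beside larger rings. In Bbs9, a subunit of the BBSome of cilia, chr9:22643745-22659145 had 757, 975, 388 and 370 junction reads and a ratio of 0.204. It shared its start with chr9:22643745-22679064, which had 12865 reads and a ratio of 0.911. Another in Bbs9, chr9:22655225-22679064, shared the end of that ring and had 386, 500, 153 and 173 reads (ratio 0.101). The methyltransferase gene Mettl9 had chr7:121052087-121057399 with 648, 772, 187 and 180 reads (ratio 0.281) beside a ring of 9353 reads and ratio 0.977. For Stx6, a syntaxin of the trans-Golgi network, chr1:155187778-155197435 had 389, 437, 171 and 150 reads (ratio 0.236) beside a ring of 8251 reads and ratio 0.971. In Rps6kc1 chr1:190885334-190899571 had 376, 368, 220 and 224 reads (ratio 0.304). Its partner had 5208 reads and a ratio of 0.853. In each of these 4 genes the ring that shared the splice site had several times the reads and a ratio far above 0.35. The circRNA chr10:92075513-92136690 (682, 771, 339 and 324 reads, ratio 0.207) shared its end with the large Rmst ring, and their starts differed.

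Arhgap10, a GTPase-activating protein, hosted 12 of the 409, the most of any gene that the deposited tables name as a host. These were among 15 of its circRNAs that passed the read minimum. The most abundant, chr8:77344640-77351672, had 312, 329, 394 and 416 junction reads. It was higher in the deletion libraries, although these held fewer junction reads in all. Its non-junction reads were 4151, 5844, 2417 and 3201, and its start was shared with a ring of 7565 reads and ratio 0.672. Rere, a nuclear receptor corepressor, hosted 10 of 13. Rims2, a scaffold of the synaptic active zone, hosted 9 of 15, and the protease gene Tasp1 8 of 12. Agtpbp1, which trims glutamate chains from tubulin, hosted 7 of 7, so that none of its circRNAs with the read minimum stood above the limit. Bbs9 hosted 6 of 11 and Ano2 6 of 10.

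Of the 33 intergenic circRNAs, 18 lay within Rp1 in the RefSeq gene table, all on the minus strand in the deposited tables. Rp1 encodes a microtubule-associated protein of the photoreceptor axoneme. The table (assembly GRCm38.p6) was used for names and neighbours only. Each of the 375 circRNAs with 1 host fell within its host's interval there. The 18 used 8 starts and 8 ends, spanned 1974 to 147579 bases, and had ratios from 0.0250 to 0.212 (median 0.0731). Together they held 3235, 3668, 1601 and 1878 junction reads. All 18 had more spanning than own junction reads. The most abundant was chr1:4206660-4228619, with 428, 540, 243 and 310 reads (ratio 0.111). Next came chr1:4163855-4228619 with 445, 491, 225 and 216 (ratio 0.212) and chr1:4206660-4231144 with 319, 370, 169 and 206 (ratio 0.0932). The lowest ratios were 0.0250 at chr1:4226611-4267620, 0.0265 at chr1:4226611-4231144 and 0.0300 at chr1:4243133-4293012. The largest ring of the locus, chr1:4163855-4231144, was above the limit, with 1538, 1643, 1068 and 1187 reads and a ratio of 0.634.

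Of the other intergenic ones, 3 lay within Zranb1, a deubiquitinase, sharing the start 132949585 on chromosome 7, and 2 within Dmd, the dystrophin gene. There was 1 each in Elf2, Ank2 and Foxp1, beside the one described above that overlaps Rmst. The 12 of intron class had ratios from 0.167 to 0.338 (median 0.258), and all 12 had more spanning than own reads. Of these 12, 4 were in Rims2, and 1 in Rasgrf2, a Ras exchange factor (chr13:91968947-91972288, with 34, 33, 96 and 35 junction reads).

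At the other end, 43 circRNAs of 37 hosts had under 0.1 spanning junction reads per non-junction read, so that spanning rings held few reads beside the non-junction reads. Besides Sag and Pmel they included all 4 of Bfsp1, the filensin of the lens fibre cytoskeleton, and both of Trpm1, the cation channel of ON bipolar cells. They also included 1 each of Samd11, Clstn1, Slc1a7, Cacna2d4, Eif4h, Dync1h1 and Ncam1. Their median span was 5827 bases and their median ratio 0.248, against 17194 bases and 0.213 in the 295 with at least 0.5.

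The lists of marker and pathway genes describe the hosts. Photoreceptor genes hosted 15 of the 409, of 31 photoreceptor circRNAs with the read minimum: 4 in Rpgrip1 (ciliary scaffold), 4 in Prom1 (disc membranes), 3 in Sag, 2 in Pde6a (rod phosphodiesterase) and 1 each in Cacna2d4 (calcium channel subunit) and Pcdh15 (protocadherin). Rp1 is not among them, as the tables name no host there. Lens genes hosted 9 of 10, namely 4 in Bfsp1 and 5 in Tdrd7, an RNA granule protein of lens. Synapse genes hosted 19 of 51, widely studied circRNA hosts 33 of 71, chromatin genes 9 of 68 and cytoskeleton genes 9 of 21. RNA-binding and splicing genes hosted 5 of 33, striated muscle genes 5 of 13 (4 in Dmd), translation and folding genes 5 of 8, hypoxia genes 4 of 13, bipolar cell genes 3 of 4 and pigment cell genes 1 of 1. Over all hosts the share was 409 of 2193. Corneal genes hosted 0 of 2, leukocyte genes 0 of 1 and lipoprotein receptor and lipid genes 0 of 9. Genes of Müller glia, of amacrine, horizontal or ganglion cells, and of endothelial, erythroid and fibroblast cells hosted 0 circRNAs with the read minimum, so none of theirs could be among the 409.

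The genotypes were then compared with edgeR's quasi-likelihood test over the 4 libraries, with day as an additive term and Benjamini-Hochberg adjustment at 0.05 over all circRNAs fitted. With 1 library per group this fit leaves 1 residual degree of freedom for each circRNA, so its variance estimate also draws on the other circRNAs fitted. Its p-values reflect only the spread between these libraries, and not that between animals. The rule pooled the genotypes, but its minimum of 20 reads also held in the deletion libraries, whose junction totals were smaller. There it removes circRNAs that were low. The pooled ratio sums reads, most of which come from the wild-type libraries, so a low pooled ratio weighs a low ratio in wild type more. Both parts of the rule favour higher odds in the deletion. In bulk tissue, fewer cells of a type and less RNA per cell cannot be told apart.

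The odds of junction to non-junction reads were higher in the deletion for 80 of the 409, led by circRNAs of Bfsp1, Ttyh2, Samd11, Sag, Dgkd and Rpgrip1 in that order, and lower for 19, led by one of Rp1. Junction reads were set against the non-junction reads of the same library, so that a scale factor shared by both kinds of read cancels. A library difference in 1 kind of read only, such as in the removal of linear RNA, does not cancel. Between the runs it cannot be told apart from genotype. With edgeR's TMM scaling factors estimated separately for each kind of read, 76 were higher and 24 lower, with a median difference of 0.27. The 99 are 24.2% of the 409. Over all 2193 the test called 14.0%, with 8.85% higher and 5.2% lower. Among the other 1784 it called 114 higher and 95 lower, or 11.7%. Because the rule itself favours higher odds in the deletion, the excess of higher over lower calls is a description and is not read as a result about the 409. The same holds for their larger share of calls, since the rule chose them on both counts that enter the odds. The median difference of log2 odds, deletion minus wild type, was 0.31 in the 409 and 0.04 over all 2193. Among the 98 with at least 50 junction reads in each library, 26 were higher and 8 lower, with a median of 0.30. Without wild type P13 the calls were 48 higher and 10 lower, without deletion P12 49 higher, and without wild type P12 11 lower. All 99 kept their sign in the 4 fits that each left out 1 library, and 28 of the 80 and 3 of the 19 passed in each of them. DESeq2 called 35 higher and 6 lower.

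**Figure D4:**
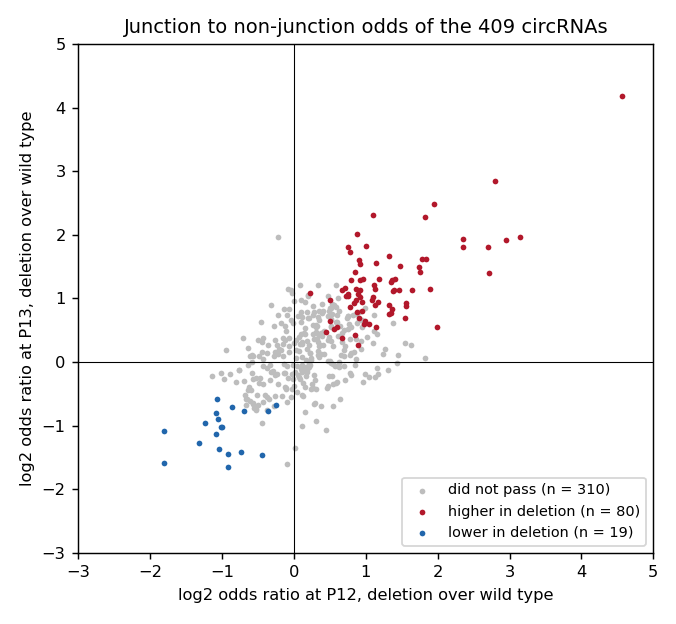
Each point is 1 of the 409 circRNAs; the axes are log2 odds ratios, deletion over wild type, at P12 and at P13, from the reads of 2 libraries each. The 80 circRNAs called higher and the 19 called lower lie along the diagonal, and 300 of the 409 have the same sign at both days.

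Seen day by day, 217 of the 409 had higher odds in the deletion at both days, 83 lower at both, and the rest differed in sign. The exact 95% interval of the odds ratio, which covers counting error only, lay above 1 at both days for 78 and below 1 at both for 19. The 80 came from 59 hosts and 8 circRNAs without a host. Of the 80, 51 were also called higher in junction reads, 14 were called lower in non-junction reads only, and 15 were called in neither. Of the 19, 8 were called lower in junction reads and 11 only higher in non-junction reads. Among the 43 with few spanning reads 12 were higher and 4 lower, among the 71 between 0.1 and 0.5 it was 10 and 3, and among the 295 with more it was 58 and 12.

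Bfsp1 stood first. The circRNA chr2:143841674-143849023 had 43, 57, 518 and 411 junction reads beside 1748, 2201, 891 and 872 non-junction reads. Its ratio was 0.0469 and 0.0492 in the wild-type libraries and 0.538 and 0.485 in the deletion libraries, with no overlap. The log2 odds rose by 4.36 (SE 0.18, edgeR adjusted p = 2.53e-14), and between 4.22 and 4.52 with a library left out. Of the other 3 circRNAs of Bfsp1, chr2:143841674-143858117 was also higher (47, 53, 55 and 65 junction reads, log2 odds 1.50, SE 0.23). It shares its start with the first. The pair that starts at 143830084 did not pass, with log2 odds of -0.20 for the one ending at 143849023 and -0.07 for the one ending at 143832057. None of the 5 of Tdrd7 passed, so that the lens list held 2 higher and 0 lower of 9.

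Photoreceptor hosts gave 7 higher and 1 lower of 15. In Sag, chr1:87828397-87834627 had 40, 81, 207 and 187 junction reads beside 2311, 2805, 1545 and 1719 non-junction reads. Both deletion libraries held more junction reads than either wild-type library, despite their smaller totals, and the log2 odds rose by 2.37 (SE 0.21, edgeR adjusted p = 5.46e-08). Its neighbour with the same start, chr1:87828397-87840847, had 136, 148, 137 and 129 reads and a log2 odds of 0.58 (SE 0.17). This call did not hold without wild type P12 (0.67), wild type P13 (0.48) or deletion P12 (0.45). With TMM scaling all 3 Sag circRNAs were called higher in junction and in non-junction reads. With the SRPBM constants described below only chr1:87828397-87834627 kept its call in junction reads, and none did in non-junction reads. In Rpgrip1 3 of 4 had higher odds, led by chr14:52120473-52121121 with 38, 23, 68 and 52 junction reads beside 1248, 1609, 581 and 650 non-junction reads (log2 odds 2.17, SE 0.26). Rpgrip1 chr14:52120473-52126384 (92, 98, 95 and 86 reads) was at 1.06. In Prom1 chr5:44055878-44063184 (33, 33, 43 and 38 reads) was at 1.26, which did not pass without deletion P12 (1.02). Cacna2d4 chr6:119267807-119282250 (69, 98, 52 and 77 reads) was at 1.00, and did not pass without wild type P12 (0.72). The exception was Pde6a chr18:61262416-61281584, whose odds fell by 1.10 on the log2 scale. Its ratio was 0.419, 0.323, 0.234 and 0.196, and the call did not hold without wild type P12 (-0.80).

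The other leading circRNAs had hosts of several kinds. In Ttyh2, a membrane protein of the tweety family, chr11:114708417-114708861 had 41, 47, 54 and 55 junction reads while its non-junction reads went from 514 and 615 to 97 and 100. Its ratio was 0.138, 0.133, 0.527 and 0.524, and the log2 odds differed by 2.82 (SE 0.28). For Samd11, a nuclear protein of photoreceptors, chr4:156251946-156254547 had 40, 44, 36 and 32 junction reads beside 3203, 1897, 327 and 353 non-junction reads, a log2 odds difference of 2.55 (SE 0.30). In both, the unscaled junction reads were alike in all 4 libraries, although these differ in total junction reads. With TMM scaling the Ttyh2 circRNA was also called higher in junction reads in the deletion, and that of Samd11 was not. The non-junction reads were lower in both deletion libraries. Unscaled medians of the 409 were lower there too, at 260 and 297 non-junction reads against 549 and 618 in wild type. In Dgkd, a diacylglycerol kinase, chr1:87880368-87881939 had 24, 23, 62 and 29 junction reads, so that deletion P12 stood apart (log2 odds 2.29, SE 0.33). It was 1.75 at the lowest with a library left out. Rasgrf2, named above, had the same pattern, with a log2 odds of 2.13, and of 1.36 without deletion P12. Arhgap10 chr8:77344640-77351672 was at 1.16, and 2 of its 12 were higher and 1 lower. Rere had 3 higher and 1 lower of 10. The circRNA of Pmel was at 0.82 (SE 0.24) and did not pass without wild type P12 (0.54) or without deletion P13 (0.53).

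**Figure D5:**
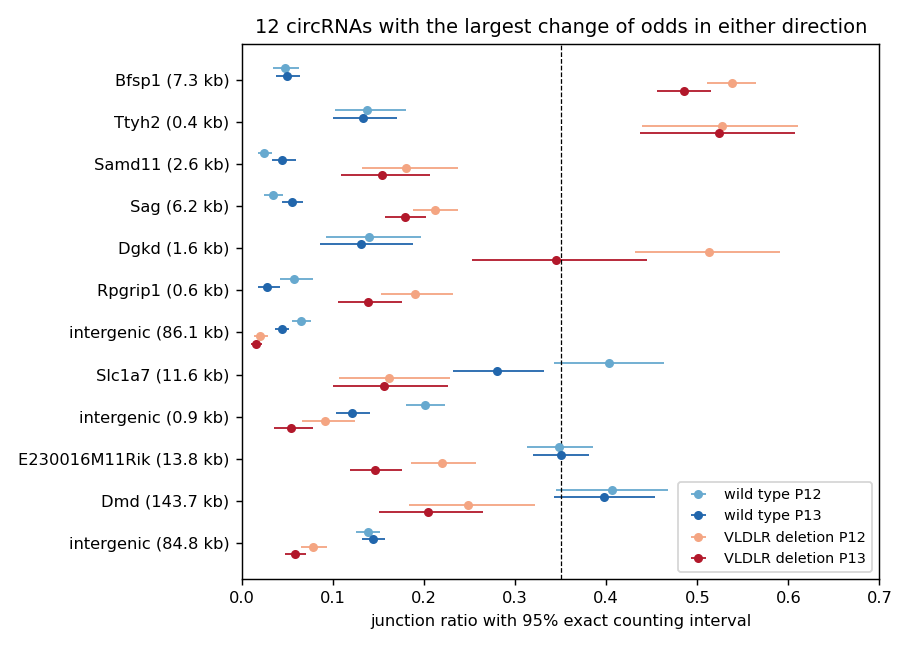
For the 6 circRNAs with the largest rise and the 6 with the largest fall of log2 odds in the deletion, points give the junction ratio in each library and lines its exact 95% counting interval; names give the host and the span in kilobases, and the dashed line is 0.35. In Bfsp1 the wild-type ratios are 0.0469 and 0.0492, and those of the deletion 0.538 and 0.485.

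Lower odds in the deletion were led by an intergenic circRNA of Rp1. This one, chr1:4226611-4312722, had 147, 106, 25 and 24 junction reads beside 4230, 4682, 2524 and 3176 non-junction reads, and its log2 odds fell by 1.70 (SE 0.21). Another, chr1:4226611-4311433, was the sixth in size, had 366, 420, 109 and 99 junction reads and fell by 1.18 (SE 0.16). Both start at the same position. Within Rp1 the direction was mixed: 5 of the 18 were higher and 3 lower, with log2 odds from -1.70 to 1.38 (median 0.09). Among the higher ones was chr1:4243133-4293012, at 1.38, with 36, 41, 37 and 39 junction reads.

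Slc1a7, a glutamate transporter of retinal neurons, had chr4:107992939-108004489 with 86, 79, 23 and 20 junction reads beside 255, 406, 239 and 217 non-junction reads, and its log2 odds fell by 1.46 (SE 0.30). The call did not hold without wild type P12 (-1.04). In the Zranb1 region chr7:132949585-132950435 had 247, 137, 36 and 25 reads and fell by 1.30 (SE 0.22), but did not pass without wild type P12 (-0.84). For E230016M11Rik chr6:67064613-67078417 had 199, 279, 106 and 84 reads and fell by 1.29 (SE 0.20). In Dmd chrX:83346262-83489945 had 83, 100, 35 and 38 reads, with ratios of 0.406, 0.398, 0.248 and 0.204. Its log2 odds fell by 1.22 (SE 0.26), which did not pass without deletion P13 (-1.02) or under DESeq2 (-1.21). A second one of Dmd, chrX:84271952-84312626, fell by 1.12, and did not pass without wild type P13 (-0.60) or under DESeq2 (-1.09). In Rims2 2 of 9 were lower and none higher, at -1.11 for chr15:39274976-39292312 and -1.01 for chr15:39452040-39462610. The first of these did not pass without wild type P13 (-0.79) or deletion P12 (-0.84), and the second not without wild type P13 (-0.93), deletion P12 (-0.96) or deletion P13 (-1.07). Neither passed under DESeq2.

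Of the remaining lists, synapse genes gave 3 higher and 2 lower odds of 19. Widely studied circRNA hosts, a list that also holds Rims2 and Arhgap10, gave 3 higher and 3 lower of 33. Chromatin genes gave 2 and 0 of 9, cytoskeleton genes 0 and 1 of 9, RNA-binding genes 1 and 0 of 5, and striated muscle genes 0 and 2 of 5. Translation and folding genes (5), hypoxia genes (4) and bipolar cell genes (3) gave none. Examples that did not pass are Hif1a, an oxygen-regulated transcription factor, at chr12:73926557-73932476 (48, 51, 22 and 26 junction reads, log2 odds -0.01), and Trpm1 at chr7:64217490-64224655 (34, 35, 25 and 21 reads, -0.62). Kdm4c, a histone demethylase, had log2 odds of 0.83, 0.67 and -0.67 in its 3 circRNAs, none past the threshold.

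Junction reads on their own were scaled by edgeR's TMM factors. They were higher in the deletion for 68 of the 409 and lower for 12, or 19.6%. The test called 8.62% of all 8785 circRNAs fitted (5.03% higher, 3.59% lower) and 19.1% of the 2193 with the same read minimum, so the share of calls was near that background. By direction, the calls among the 2193 were 13.7% higher and 5.34% lower. The median log2 difference was 0.31 in the 409, 0.11 in the other 1784 and -0.08 over all 8785. With at least 50 reads in each library 23 were higher and 7 lower of 98. Without wild type P12 there were 40 higher and 6 lower, and without wild type P13 38 higher. With no filter on low counts there were 38 higher and 18 lower. With the library constants behind the deposited SRPBM values in place of TMM, the median over all circRNAs moved to -1.54 and 3 were higher and 278 lower, so direction here is relative to the bulk of circRNAs.

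Bfsp1 chr2:143841674-143849023 (log2 4.35, SE 0.19) and Sag chr1:87828397-87834627 (2.89, SE 0.25) led the rise in junction reads. Atxn1 chr13:45852328-45956575 followed with 77, 82, 223 and 193 reads (2.53, SE 0.19). Next came the Rpgrip1 circRNA chr14:52120473-52121121 (2.14) and one of Bub1b, a mitotic checkpoint kinase, at chr2:118630945-118631899 with 34, 24, 55 and 58 reads (2.11). The Dgkd circRNA named above was at 2.04. All 6 stayed above 0 with the SRPBM constants, between 0.58 and 2.90. The lowest were the Zranb1 region circRNA chr7:132949585-132950435 (-1.48, and -0.92 without wild type P12, when it did not pass) and Clstn1, a synaptic cadherin-like protein, at chr4:149631728-149635355 with 141, 174, 24 and 31 reads (-1.37, SE 0.25). A circRNA of Rbm4, an RNA-binding protein, that the tables also assign to Gm21992 was at -1.34, with 133, 176, 35 and 20 reads at chr19:4784724-4788042.

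Non-junction reads were tested in the same way over the 2193. They were higher in the deletion for 56 of the 409 and lower for 67, or 30.1%. Over all 2193 the test called 15.0% (7.66% higher and 7.3% lower), and 11.5% of the other 1784. The rule chose the 409 for high non-junction reads, and smaller differences can pass at higher counts. Their larger share of calls is therefore a description and is not read as a result about the 409. The median log2 difference was -0.07 in the 409 and 0.02 over all 2193. Without wild type P12 the calls were 21 higher and 34 lower, without wild type P13 35 lower, without deletion P12 35 higher and without deletion P13 22 higher and 23 lower. With the SRPBM constants 0 were higher and 402 lower, and the median over the 2193 moved to -1.36.

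At several hosts, whose circRNAs share positions and spanning reads, the calls went 1 way. With TMM scaling, though for none with the SRPBM constants, all 5 circRNAs of Atxn1, all 4 of Dmd, all 3 of Sag and all 3 of the bipolar cell genes (2 in Trpm1, 1 in Prkca) were called higher in non-junction reads, and 5 of 9 of Rims2. Called lower were 9 of 10 of Rere, 5 of 6 of Bbs9, 4 of 6 of Ano2 and 3 of 3 of Rmst. The leading rises were Pde6a chr18:61262416-61265065 (log2 1.23, SE 0.16, from 0.81 without wild type P12 to 1.68 without wild type P13, and not past the threshold under DESeq2), Dmd chrX:84425708-84431992 (1.20, SE 0.16) and Trpm1 chr7:64217490-64224655 (1.08, SE 0.16), each below 0 with the SRPBM constants. The leading falls were Samd11 chr4:156251946-156254547 (-1.80, SE 0.15), Anks1b, a synaptic scaffold, at chr10:90042546-90050112 (-1.63, SE 0.16) and Ttyh2 chr11:114708417-114708861 (-1.45, SE 0.17).

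Between the days, no circRNA of the 409 was called. edgeR with genotype as an additive term called 0 in junction reads, where the background was 0.0228% of 8785 (0.0114% in each direction), and 0 in non-junction reads and in odds, where it was 0.0% of 2193. DESeq2 also called 0 in each. At an unadjusted p under 0.05 edgeR gave 8 higher and 13 lower at P13 in junction reads, 20 and 14 in non-junction reads, and 17 and 23 in odds. The median difference of log2 odds, P13 minus P12, was -0.02 in the 409 and 0.03 over the 2193. limma on log2 odds called 1 higher and 1 lower of the 409.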

How the data were processed

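Junction and non-junction counts were deposited by the authors as 1 table per library, whose columns per the file headers are those of the circRNA caller CIRI. The junction ratio is a fraction deposited by the authors, and 0 of 97922 recomputed values differed from it by over 0.00051. The deposited SRPBM signal is the authors' junction reads divided by 1 constant per library, whose meaning is not stated. The constant was 9.14 (P12) and 9.10 (P13) in wild type, and 10.6 (P12) and 12.1 (P13) in the deletion libraries. Build and annotation are likewise not given in the sources used here. The submitters' processing notes name BWA and DESeq2 without version or role. The 409 circRNAs, the gene lists and the tests were chosen with earlier results of these data known.

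Counts were tested with edgeR 4.0.16 in R 4.3.3 (glmQLFit, robust, TMM, Benjamini-Hochberg adjustment), with genotype and day as additive terms: junction reads of 8785 circRNAs (minimum 10 reads in 2 libraries), and non-junction reads and odds of the 2193. The odds fit held both kinds of read of each library with a term for the library. Each SE is the absolute log2 difference divided by the square root of the test's F statistic, so it shares the same variance estimate. DESeq2 1.42.0, limma 3.58.1 on log2((2 x junction reads + 1)/(non-junction reads + 1)), other scalings and filters, and fits leaving out each library were alternatives. Those with 50 reads in each library and those on which spanning circRNAs are summed were chosen after seeing the data. In the fits with 1 library left out, genotype was not adjusted for day, nor day for genotype. The main edgeR fits were tested on simulated counts, and the alternatives were not. Exact 95% intervals were Clopper-Pearson for the junction ratio, and conditional for the odds ratio, set beside the sample odds ratio. They cover counting error only, without the spread between libraries or animals, and the reads carry no molecular identifiers. CircRNAs named are the 10 of lowest ratio, the 10 with most reads, 3 on each side of the limit, the intron and intergenic classes, hosts with at least 3, the 6 largest per fit and direction, and 2 to 4 of each list. Some circRNAs that this rule names are not reported here.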

Additional observations from a re-analysis of the deposited data

Results flagged for a closer look

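At 2 of the 409 circRNAs the genotypes differed in opposite directions at P12 and P13, with the exact 95% counting interval of the odds ratio away from 1 at both days. The difference between the days was not tested, as each group holds 1 library. In Prom1, a protein of photoreceptor disc membranes, chr5:44020808-44045583 had 94, 163, 66 and 53 junction reads beside 755, 924, 339 and 451 non-junction reads. Its odds ratio, deletion over wild type, was 1.56 (1.09 to 2.22) at P12 and 0.666 (0.470 to 0.934) at P13, so that the P12 ratio was 2.35 times the P13 ratio. In Rere chr4:150439343-150477468 had 386, 426, 101 and 144 junction reads beside 2096, 2390, 740 and 619 non-junction reads. Its odds ratio was 0.741 (0.580 to 0.941) at P12 and 1.31 (1.05 to 1.61) at P13, the first being 0.568 times the second. No explanation was tested.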

How the results depend on the processing

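No paired analysis was possible because each group holds 1 library and the labels carry no replicate numbers. The member count of the rule was 1150 with 10 junction reads in each library and 98 with 50. For the genotype, DESeq2 called 33 higher in junction reads, 26 higher and 35 lower in non-junction reads, and 35 higher and 6 lower in odds. No filter on low counts left 38 higher in junction reads. The SRPBM constants as library sizes gave 3 higher and 278 lower in junction reads and 0 higher and 402 lower in non-junction reads, since they set the deletion libraries lower as a whole. Among those that reached 50 reads in every library, junction reads gave 23 higher and 7 lower, non-junction reads 16 and 23, and odds 26 and 8, of fewer circRNAs. Leaving out 1 library gave 38 to 62 higher and 6 to 13 lower in junction reads, 21 to 42 higher and 23 to 45 lower in non-junction reads, and 48 to 61 higher and 10 to 15 lower in odds. For the day, limma on log2 odds called 1 higher and 1 lower, with 1 or 5 added. Non-junction reads at the 6 leading rises turned below 0 with the SRPBM constants: -0.14 and -0.23 in Pde6a, -0.18 and -0.25 in Dmd, -0.17 in the intergenic one within Dmd and -0.29 in Trpm1. Of 90 single values, 36 no longer passed under DESeq2, and between 14 and 27 with a library left out. The cause of these changes was not tested. Junction counts were smallest in the deletion libraries, where the 409 had a median of 35 and 40 junction reads against 63 and 73 in wild type.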
